A study of Mus musculus with 24 samples.

Results

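Bisphenol A (BPA) before birth left no detectable change in the RNA of any measured cholesterol synthesis gene or sterol sensor in the fat of adult male mice. The genes described are 8 of the sterol pathway, chosen by symbol: Hmgcs1, Mvk, Idi1, Fdft1, Sqle and Sc5d, which encode enzymes, and Srebf2 and Insig1, which encode the sterol sensing machinery. In the deposited table of 20624 genes, 7 of the 8 were found under their own symbol and 6 (Mvk, Fdft1, Sqle, Sc5d, Srebf2 and Insig1) had values high enough to test. Epididymal white fat was taken at 19 weeks of age from males of the outbred CD-1 stock. The mothers of 6 animals had been given BPA, an estrogen-like plasticizer, by mouth at 500 ug/kg/day from gestational day 9 to 18. The mothers of the other 6 animals received only the corn oil vehicle over the same days, and all offspring ate the same chow with 4% fat. One library of ribosome-depleted RNA was made per animal, and since litters are not identified in the labels, p-values measure the spread between animals taken as independent.

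Cells build cholesterol from acetyl-CoA through the mevalonate pathway, the joining of farnesyl units into squalene, and the closing and trimming of the sterol rings. When sterols in the endoplasmic reticulum run low, the membrane-bound factor SREBP2, the product of Srebf2, is cut and moves to the nucleus, where it switches on nearly all enzymes of the pathway together. When sterols are plentiful, INSIG1 holds the SREBP escort SCAP in the endoplasmic reticulum, which keeps SREBP2 from being cut. White fat holds a large store of free cholesterol in its lipid droplets, and its own synthesis is generally modest beside that of the liver.

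The promoters are shown because SREBP2 control is the feature the pathway is known for. SREBP2 binds sterol regulatory elements, commonly beside a CCAAT box bound by the factor NF-Y. Below are the 250 bases before the start of 4 measured genes, 5′ to 3′ along the gene's strand, from RefSeq on build GRCm38.p6. They lie at chr15:82147019-82147268 (Srebf2, plus strand), chr5:28071162-28071411 (Insig1, plus strand), chr5:114444019-114444268 (Mvk, plus strand) and chr9:42264301-42264550 (Sc5d, minus strand). Capitals mark the sterol element core TCACNCCA, the CCAAT box (CCAAT, or ATTGG when it lies on the other strand) and the E-box CACGTG, each searched on both strands. None of the 3 motifs overlapped another in these windows.
Srebf2: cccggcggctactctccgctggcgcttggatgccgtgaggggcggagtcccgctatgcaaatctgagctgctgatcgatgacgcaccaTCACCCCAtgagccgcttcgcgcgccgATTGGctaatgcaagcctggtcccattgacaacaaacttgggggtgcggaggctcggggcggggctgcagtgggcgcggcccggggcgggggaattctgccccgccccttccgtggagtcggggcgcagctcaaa
Insig1: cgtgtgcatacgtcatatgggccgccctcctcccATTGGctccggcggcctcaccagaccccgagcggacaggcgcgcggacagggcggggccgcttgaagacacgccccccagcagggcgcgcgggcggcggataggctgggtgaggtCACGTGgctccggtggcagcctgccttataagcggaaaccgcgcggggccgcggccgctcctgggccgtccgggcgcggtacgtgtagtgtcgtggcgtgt
Mvk: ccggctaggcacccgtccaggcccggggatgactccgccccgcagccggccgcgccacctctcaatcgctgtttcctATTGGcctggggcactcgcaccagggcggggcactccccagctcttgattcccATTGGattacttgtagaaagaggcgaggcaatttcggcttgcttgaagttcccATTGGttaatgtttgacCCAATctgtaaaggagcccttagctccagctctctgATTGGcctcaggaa
Sc5d: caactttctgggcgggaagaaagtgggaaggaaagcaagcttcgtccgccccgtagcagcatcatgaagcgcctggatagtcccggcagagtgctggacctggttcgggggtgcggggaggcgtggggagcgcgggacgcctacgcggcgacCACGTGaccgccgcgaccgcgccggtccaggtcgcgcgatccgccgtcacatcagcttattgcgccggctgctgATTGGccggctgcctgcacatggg

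Promoters were found for 6 of the 8 genes, Fdft1 and Sqle being the others. A CCAAT box was present in 6 of these 6 promoters, against 33.8% of all 32851 mouse promoters of the same length and 35.4% of those of coding genes. It was found for 12 of 14 other cholesterol synthesis genes with a promoter and 6 of 11 of sterol sensing and uptake. Those 2 lists hold 17 promoters each. A gene was counted when any of its promoters matched, whereas the percentages are per promoter. Mvk held 5 CCAAT boxes. The sterol element core occurred in 2 of the 6, Srebf2 and Hmgcs1, against 3.67% of all promoters, and in Srebf2 it began at position -162 from the start. Of the other synthesis genes with a promoter 1 of 14 held this core, and of those of sterol sensing and uptake 0 of 11. The E-box occurred in 2 of the 6, Insig1 and Sc5d, against 6.02% of all promoters. In the same 2 lists it occurred in 2 of 14 and 1 of 11 genes. These are matches of letters and not shown binding sites.

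Values are the authors' normalized expression signal, rescaled so that libraries sum to between 9628801 and 11582945, and sequencing depth is unknown. All 8 white adipocyte markers were measured, with summed values of 131969 to 215828 in BPA animals and 111294 to 214962 in vehicle animals. Some libraries stood apart in markers of other cells. Duct epithelium markers (9 found, 5 tested) summed to 13992 in BPA animal 5, 4051 in BPA animal 2 and 8469 in vehicle animal 6. The sums of the other 9 animals lay between 123.3 and 1552, and Amn, Pax2 and Krt8 were listed at 0 in some libraries. Epididymal epithelium markers (7 found, 0 tested) summed to 4715 in vehicle animal 6 and 593 in vehicle animal 4, and to 32.9 or less in the others. Adam7 (3280 and 333) and Crisp1 (1416 and 255) carried these 2 sums. Lcn5, Lcn8, Defb1, Spink2 and Rnase10 were at 9.866 or less in every animal. BPA animal 3 was highest in brown adipocyte markers (6 found, 4 tested), at 1900 against 161.9 or less, and in smooth muscle markers (6 of 6 tested), at 31026 against 13666 or less. Mesothelium markers (6 of 6 tested) summed to between 307 and 1882 in BPA and between 705 and 2672 in vehicle animals, and all 6 were lower in BPA animals, among them Msln at -1.52 and Lrrn4 at -1.25 on the log2 scale (limma adjusted p 0.9997 each). Macrophage markers (8 of 8 tested) summed to 23582 in vehicle animal 3 and to between 8381 and 13329 in the other 11. Liver markers (6 found, 1 tested) summed to 591.4 in vehicle animal 2 and 584.7 in vehicle animal 3, of which Alb made 482.6 and 422.3. Elsewhere they summed to 176.2 or less. Testis germ cell markers (8 found, 1 tested) were highest in vehicle animals 4 and 6, at 134.0 and 117.7, against 80.1 or less. In whole tissue, fewer cells of a type and less RNA per cell cannot be told apart. The part of these cell types in the results that follow was not tested, beyond the values given without single animals.

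Of the early mevalonate steps only Mvk could be tested. Hmgcs1, which makes HMG-CoA from acetyl-CoA units, is listed only in rows marked as duplicates, at the constant 2.78e-17 in all 12 animals, so its RNA was not measured. Such a constant fills 484 of the 512 rows marked this way. Idi1, the isomerase that makes the allylic building block of farnesyl units, had values between 0.1695 and 5.902 and did not pass the filter of at least 10 in at least 6 libraries. Fdps, the next enzyme on the path, was listed at similarly low values of 0.6853 to 6.635. How reads that match several genomic places were counted is not given in the sources used here.

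Mevalonate kinase, encoded by Mvk, was the enzyme with the largest difference in size among the tested members. Its values were 77.1, 49.3, 81.1, 75.1, 63.4 and 53.9 in BPA animals 1 to 6 and 96.7, 73.0, 98.6, 95.3, 73.6 and 65.6 in vehicle animals 1 to 6. Vehicle animals 1, 3 and 4 lay above every BPA animal, while the other 3 vehicle animals fell among them. The means were 66.6 ± 13.1 and 83.8 ± 14.6 (SD, n = 6 each). On the log2(value + 1) scale, BPA minus vehicle was -0.33 (95% interval -0.68 to 0.02), with an adjusted p of 0.9997 in limma. The unadjusted p was 0.0635, and the exact two-sided permutation test over 924 assignments gave 0.0671. Leaving out 1 animal at a time gave between -0.25 and -0.40, with the smallest unadjusted limma p, 0.0335, without vehicle animal 6. Mvk did not pass the test, and 90.5% of all tested genes had a smaller difference in size.

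The 2 genes of the squalene steps lay on opposite sides of 0, neither beyond the spread between animals. Fdft1, squalene synthase, joins farnesyl units and commits them to sterols. Its values were 405, 357, 412, 542, 271 and 397 in BPA animals 1 to 6 and 440.2, 383, 587, 376, 348 and 490.5 in vehicle animals 1 to 6. Vehicle animal 3, the one highest in macrophage markers, was highest, and BPA animal 5, the one highest in duct markers, was lowest. The log2 difference was -0.14 (-0.49 to 0.20, limma adjusted p 0.9997), and it was 0.05 (-0.23 to 0.33) without these 2 animals. It was -0.04 without BPA animal 5 alone, -0.05 without vehicle animal 3 alone and -0.24 without BPA animal 4.

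Squalene epoxidase, encoded by Sqle, adds the first oxygen on the way to the sterol ring. Its values were 197, 249, 292, 191.5, 399 and 205 in BPA animals and 167, 185, 272, 227, 292 and 205 in vehicle animals, in the same order. BPA animal 5 stood above all others, and the remaining 11 animals of both groups overlapped. The log2 difference was 0.16 (-0.25 to 0.58, limma adjusted p 0.9997), and without the 3 animals high in duct markers it was -0.04 (-0.46 to 0.39). It was 0.02 without BPA animal 5 alone, 0.08 without vehicle animal 1 and 0.24 without vehicle animal 5. Sqle also had the widest spread of the 6 tested genes, with a within-group SD of 0.365 against a median of 0.271 over all tested genes.

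Sc5d encodes the desaturase that acts near the end of the pathway, where lathosterol becomes 7-dehydrocholesterol. Its values were 1078, 1025, 869.5, 897.5, 945 and 978 in BPA animals 1 to 6 and 757.5, 793, 737, 1239, 910.4 and 651 in vehicle animals 1 to 6. BPA animals kept to a narrow band, and 4 of 6 vehicle animals lay below all of them, but vehicle animal 4 had the highest value of all. The means were 965.5 ± 78.2 and 848 ± 209 (SD, n = 6 each). The log2 difference was 0.22 (-0.07 to 0.50, limma adjusted p 0.9997), and 0.13 (-0.20 to 0.46) without the 3 animals high in duct markers. Without vehicle animal 4 it was 0.33 (0.13 to 0.53), with an unadjusted p of 0.00382 and an adjusted p of 0.9998 in limma.

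The sensors showed the same absence of a called difference. Srebf2, the precursor of the pathway's activator, had values of 201, 176, 227, 192, 265 and 173.5 in BPA animals 1 to 6 and of 165, 171, 292, 157, 209 and 229 in vehicle animals 1 to 6. The BPA values, from 173.5 to 265, lay inside the wider vehicle range of 157 to 292, with vehicle animal 3 and BPA animal 5 highest. The log2 difference was 0.03 (-0.31 to 0.38, limma adjusted p 0.9997), and 20% of tested genes had a smaller difference in size.

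Insig1 is itself an SREBP target, and its product closes the feedback loop. Its values were 385, 492.5, 500.2, 362, 483 and 403 in BPA animals 1 to 6 and 219.6, 475, 313, 483, 348 and 351.5 in vehicle animals 1 to 6. Vehicle animals 1, 3, 5 and 6 lay below every BPA animal, and vehicle animals 2 and 4 lay within the BPA range. The means were 438 ± 61.0 and 365 ± 100.6 (SD, n = 6 each). The log2 difference was 0.30 (-0.08 to 0.67, limma adjusted p 0.9997), and 0.21 (-0.26 to 0.69) without the 3 animals high in duct markers. It was 0.16 (-0.14 to 0.47) without vehicle animal 1, which was lowest. Without vehicle animal 4, which lay within the BPA range, it was 0.39 (0.02 to 0.76), with an unadjusted p of 0.0408 and an adjusted p of 0.9998 in limma. Without vehicle animal 2, which also lay within it, the difference was 0.38 (0.009 to 0.76, unadjusted limma p 0.0455, adjusted 0.9998).

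**Figure D1:**
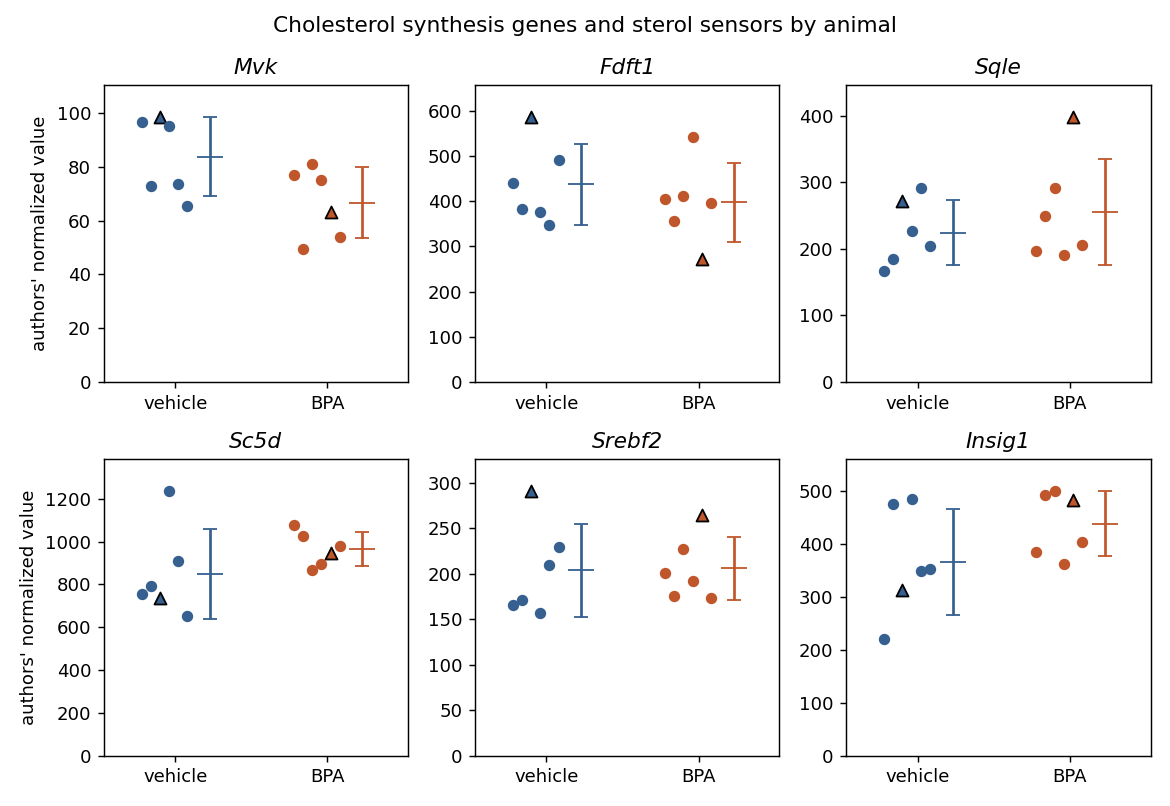
Authors' normalized value (vertical axis, linear from 0) of the 6 tested genes in each of 6 vehicle (blue) and 6 BPA animals (orange), with the mean and SD at the right of each group. Triangles mark vehicle animal 3 and BPA animal 5, and in all 6 panels the groups overlap, with Mvk means of 83.8 and 66.6 furthest apart on the log scale.

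Over the 6 tested members, 4 were higher and 2 lower in BPA animals, with a median log2 difference of 0.10. The median over all 12528 tested genes was 0.0032. At an adjusted limma p under 0.05, 0 of 6 members and 0 of all tested genes were called (0%), in either direction. At an unadjusted p under 0.05 it was 0 of 6 members against 239 genes (1.91%). The groups overlapped in all 6 members, while 4 of the tested genes (0.0319%) had groups that did not overlap. The 95% intervals of the members reached at most 0.68 below and 0.67 above 0, and larger differences lay outside them.

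The rest of the pathway held no called difference either. Of 17 other cholesterol synthesis genes 15 were tested, 9 higher and 6 lower in BPA animals with a median of 0.05, and 0 had an unadjusted limma p under 0.05. Hsd17b7 and Nsdhl, enzymes of the removal of methyl groups from the ring, were at 0.20 (-0.18 to 0.57) and 0.15 (-0.27 to 0.57). Ebp and Tm7sf2, a sterol isomerase and a reductase, were at -0.23 (-0.55 to 0.09) and -0.20 (-0.70 to 0.30). Without the 3 animals high in duct markers only 2 of the 15 were higher and 13 lower, with a median of -0.11. The median over all tested genes was then 0.0027. The members did not all move this way: Fdft1 (0.05), Srebf2 (0.03), Insig1 (0.21) and Sc5d (0.13) were higher, and Mvk (-0.29) and Sqle (-0.04) lower. The part of the duct epithelium in the shift of the 15 genes was not tested.

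**Figure D2:**
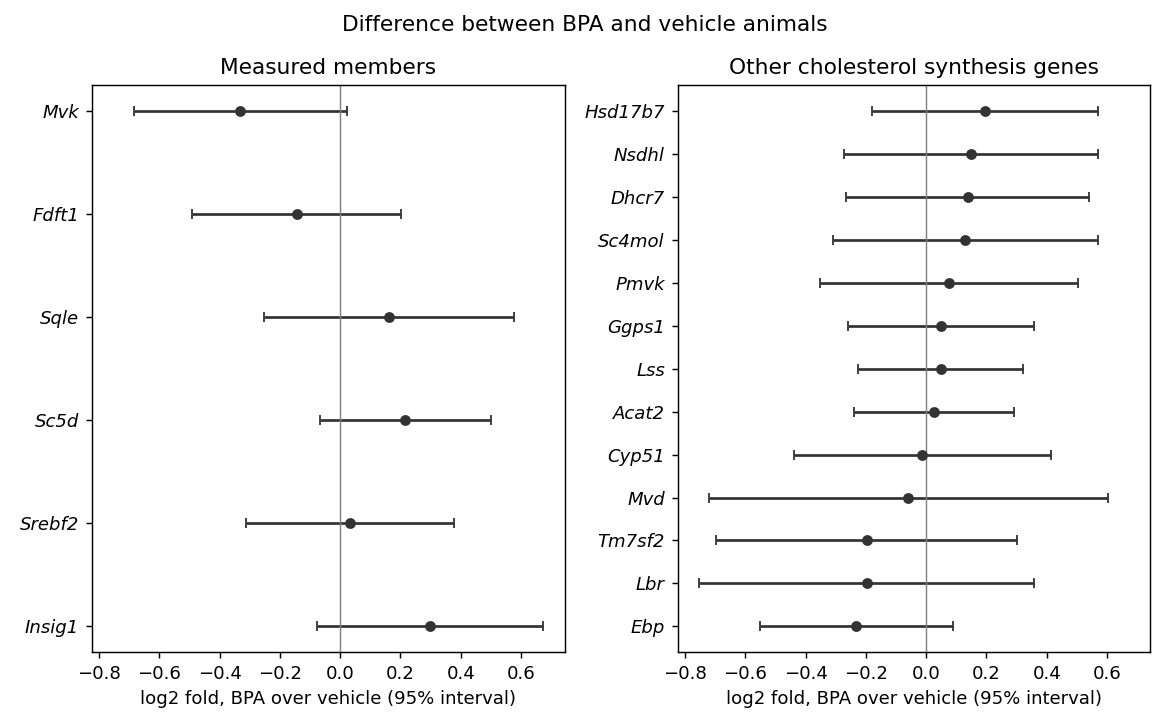
Log2 difference between BPA and vehicle animals (horizontal axis, positive where BPA is higher) with its 95% interval from limma, for the 6 tested members (left) and 13 of the other cholesterol synthesis genes (right). Every interval includes 0, from -0.33 for Mvk to 0.30 for Insig1 on the left.

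Among 16 other genes of sterol sensing and uptake, 14 were tested, 6 higher and 8 lower with a median of -0.04. The lipogenic relative Srebf1 was at 0.25 (-0.01 to 0.52, unadjusted limma p 0.059) and Insig2 at 0.10 (-0.14 to 0.34). Scarb1, a receptor for high-density lipoprotein, was at -0.18 (-0.45 to 0.09), and Nr1h3, the oxysterol receptor LXR alpha, was at -0.16 (-0.46 to 0.14).

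Of 11 genes of cholesterol export, storage and oxysterols 8 were tested, 3 higher and 5 lower with a median of -0.04. The hydroxylases Cyp7b1 and Cyp27a1 were at 0.26 (-0.43 to 0.95) and 0.02 (-0.32 to 0.36). Soat1, which esterifies cholesterol, was at -0.32 (-0.84 to 0.20), and Nceh1, which hydrolyses the esters, was at -0.35 (-1.07 to 0.37). All 13 fatty acid synthesis genes were tested, 8 higher and 5 lower with a median of 0.03. Thrsp and Mlxipl, a lipogenic protein and the carbohydrate sensor ChREBP, were at 0.36 (-0.23 to 0.95) and 0.20 (-0.24 to 0.64). Fads1 and Acaca, a desaturase and acetyl-CoA carboxylase, were at -0.12 (-0.58 to 0.33) and -0.11 (-0.53 to 0.32). In these 3 lists 0 genes had an unadjusted limma p under 0.05.

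No pair of members was shown to vary together from animal to animal. With 12 animals an r of 0.66 still had an adjusted permutation p of 0.371, so the test could not show that they vary apart. Of 28 possible pairs 21 had values, Hmgcs1 being constant, and 0 of these passed the permutation test of Pearson's r over 12 animals with Benjamini-Hochberg adjustment. Correlations were positive in 8 pairs and negative in 13, with a median r of -0.03. These counts include the pairs of Idi1, which lay near 0 and did not pass the filter. Its r ran from -0.44 with Mvk to 0.0008 with Insig1, so part of the negative count rests on it. The activator's gene and its target Sqle formed the only pair whose r had an unadjusted p under 0.05.

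Sqle and Srebf2 had r = 0.66 (permutation p 0.0177, adjusted 0.371) and Spearman's rho = 0.60 (p 0.0427, adjusted 0.419). The r was 0.56 without BPA animal 5 and vehicle animal 5, the 2 farthest from the Sqle median, and 0.82 within BPA and 0.60 within vehicle animals. It was 0.45 without BPA animal 5 and vehicle animal 3. Of all tested genes, 0.998% had an r with Sqle at least as high.

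Fdft1 lay on the other side. Its r was -0.51 with Sqle, -0.52 with Insig1 and -0.51 with Sc5d (permutation p 0.0922, 0.0816 and 0.0897, each adjusted 0.371). The matching rho values were -0.47, -0.50 and -0.62 (permutation p 0.128, 0.102 and 0.035, adjusted 0.448, 0.429 and 0.419). Without the 2 animals farthest from the Fdft1 median, BPA animal 5 and vehicle animal 3, the r with Insig1 was -0.40 and that with Sc5d was -0.50. The r of Fdft1 and Sqle depended on which animals were left out. It was 0.05 without BPA animal 5 and vehicle animal 5, the 2 farthest from the Sqle median, and -0.15 without BPA animal 5 alone. It was -0.51 without BPA animal 5 and vehicle animal 3, and -0.75 without vehicle animal 3 alone (permutation p 0.0091, adjusted 0.165). Insig1 and Sc5d had r = 0.52 (permutation p 0.0788, adjusted 0.371) and rho = 0.55 (p 0.0686, adjusted 0.419), with r of -0.19 within BPA and 0.52 within vehicle animals.

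**Figure D3:**
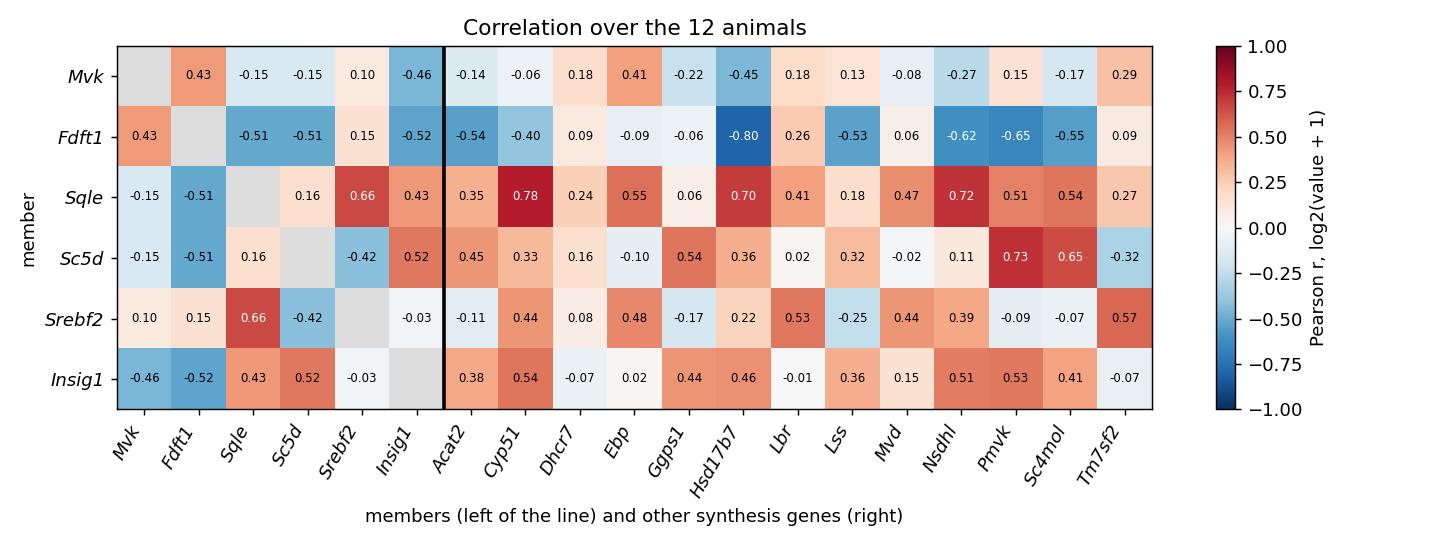
Pearson r over the 12 animals, on log2(value + 1), of each tested member (rows) with the other members (left of the line) and with 13 of the other cholesterol synthesis genes (right), red for positive and blue for negative. The Sqle row is positive against all 13 genes on the right, up to 0.78 with Cyp51, and the Fdft1 row reaches -0.80 with Hsd17b7.

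The members were also set against the 15 other synthesis genes, a comparison chosen after the data were seen. Of these 90 relations 0 passed the permutation test after Benjamini-Hochberg adjustment, the smallest adjusted p being 0.113, and 10 had an unadjusted p under 0.05. Sqle had a positive r with 15 of 15 genes, where 49.5% of all tested genes were positive. It had an r of at least 0.5 with 7 of them, where 6.54% of all tested genes reached this. The genes share the same 12 libraries, so these counts are descriptions.

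Sqle and Cyp51, the lanosterol demethylase, had r = 0.78 (permutation p 0.00251, adjusted 0.113) and rho = 0.70 (p 0.0146, adjusted 0.263). Both were highest in BPA animal 5, where Cyp51 was 963, and lowest in vehicle animal 1, where Cyp51 was 414. The r was 0.69 without BPA animal 5 and vehicle animal 5 and 0.83 within each exposure group. With Nsdhl, r was 0.72 over the 12 animals (permutation p 0.0096, adjusted 0.216) with rho = 0.52 (p 0.0838). It was 0.57 without BPA animal 5 and vehicle animal 5, 0.97 within BPA and -0.07 within vehicle animals, and BPA animal 5 stood far above the rest at 3325 for Nsdhl. Without the 3 animals high in duct markers Sqle still had a positive r with 15 of 15 genes, but reached 0.5 with only 3.

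Srebf2 was positive with 10 of the 15, where 49.8% of all tested genes were. Without BPA animal 5 and vehicle animal 3 only 4 of the 15 were positive. Insig1 was positive with 10, Sc5d with 11 and Mvk with 7, where 48.7%, 49.0% and 52.8% of all tested genes were. The Mvk count was 12 without BPA animal 2, 11 without vehicle animal 1 and 13 without the 3 animals high in duct markers. An r of at least 0.5 was reached with 3 of the 15 by Insig1, Srebf2 and Sc5d each, and with 1 by Mvk. Of all tested genes 3.1%, 8.21%, 9.25% and 8.03% reached this with the same members, in that order. Leaving out 1 library at a time, these counts were 1 to 4 for Insig1, 2 to 6 for Srebf2, 2 to 5 for Sc5d and 1 to 2 for Mvk. Sc5d and Pmvk had r = 0.73 (permutation p 0.00723, adjusted 0.216) and rho = 0.57 (p 0.0598). The r fell to 0.31 without vehicle animals 4 and 6, the 2 farthest from the Sc5d median. Without only 1 of them it was 0.57 or 0.62. Vehicle animal 4 was highest in both genes (1239 and 719) and vehicle animal 6 lowest (651 and 277). Within groups r was -0.08 in BPA and 0.98 in vehicle animals. Vehicle animals 4 and 6 were also the 2 highest in the epididymal epithelium markers Adam7 and Crisp1. The part of that epithelium in this relation was not tested.

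Fdft1 was positive with 6 of the 15, where 51.3% of all tested genes were, and reached 0.5 with 0. Without vehicle animal 3 it was positive with 0 of the 15 and had a median r of -0.45, and without vehicle animal 6 it was positive with 4. Without the 3 animals high in duct markers it was positive with 8 and reached 0.5 with 4. With Hsd17b7 its r was -0.80 (permutation p 0.00193, adjusted 0.113) and rho was -0.82 (p 0.00203, adjusted 0.108). Hsd17b7 was highest, at 686, in BPA animal 5, where Fdft1 was lowest. Leaving out BPA animal 5 and vehicle animal 3 gave -0.86, and within groups r was -0.95 in BPA and -0.51 in vehicle animals.

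**Figure D4:**
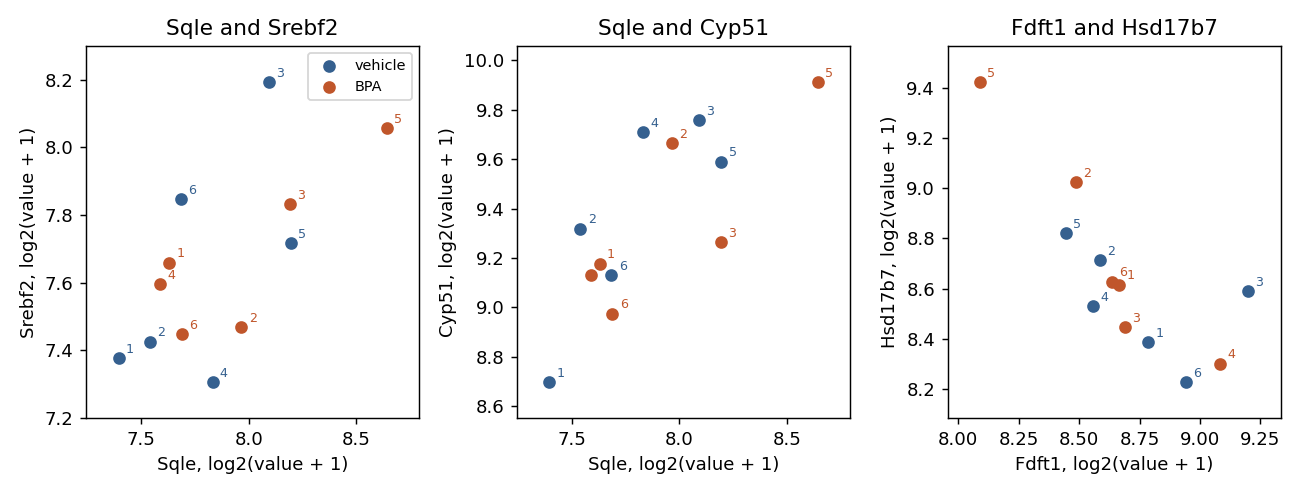
Log2(value + 1) of Sqle against Srebf2 and against Cyp51, and of Fdft1 against Hsd17b7, with 1 point per animal (blue vehicle, orange BPA) and the animal's number beside it. Points climb in the first 2 panels (r = 0.66 and 0.78) and descend in the last (r = -0.80), and BPA animal 5 lies at an end of each.

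The mean of the members was also set against all other tested genes, as a description. Taking the mean of the 6 z-scored members over 12 animals, r of each member with that mean, which includes it, was 0.69 for Sqle, 0.63 for Srebf2, 0.41 for Insig1, 0.33 for Mvk, 0.26 for Sc5d and 0.02 for Fdft1. The 10 other genes most like the mean were Efha1 (r = 0.86), Clca5, Mrpl45, Cdc42se1, Otop1, Rnls, Ccrl2, Mpp6, Zcchc17 and Ptgr1 (r = 0.81). None of the 10 belongs to the sterol or fatty acid lists.

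The authors' deposited table of 9522 genes carries p-values for a different comparison, of libraries grouped by their level of Fggy and not by exposure. In the authors' deposited table these p-values were 0.784 for Sqle, 0.638 for Fdft1, 0.386 for Srebf2, 0.629 for Insig1 and 0.271 for Sc5d, where 5.5% of the listed genes were under 0.05. Mvk and Idi1, whose values stayed under 100, are not listed in it. Srebf1 had 0.0115 in the authors' deposited table.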

How the data were processed

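RNA was measured in 12 libraries of epididymal fat, 6 per exposure group, with groups and animal numbers taken from the sample descriptions and columns matched to samples through the animal names in their titles. The deposited RNA values are a normalized expression signal per gene that the authors made with edgeR on build mm9, per the submitters' processing notes. The edgeR version, aligner, annotation and treatment of reads with several matches were not given in the sources used here. Low values were whole multiples of 1 step, within 0.05 of a step, for 100% of them in vehicle animal 1 and 98.5% in vehicle animal 6, but for only 20% to 69.8% in the other 10 libraries. No count test was therefore run, and sequencing depth and counting error are unknown. The authors' deposited p-values and linear fold belong to their grouping by Fggy level. Of the per-sample columns 60 were not used.

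A panel of 13 rows stands above the table, and the 12 that repeat it were dropped, which left 20624 genes. Another 25 rows hold calendar dates for symbols. The filter kept 12528 genes that reached 10 or more in 6 or more libraries. BPA was compared with vehicle on log2(value + 1) in limma 3.58.1 (R 4.3.3) with its trend option, two-sided, Benjamini-Hochberg at 0.05 over all tested genes. This scale understates the change of low genes. Correlations used 100000 permutations (Python 3.11.15, scipy 1.17.1), with adjustment over 21 pairs or 90 relations. Both procedures were tested on simulated data. Of each other list the 2 genes with the smallest p in each direction are named, and the 10 genes most like the members' mean. Genes named for their correlation with a member were chosen after their values were seen. The members and lists were chosen with earlier results of these data known. Alternatives were other pseudocounts, filters and scalings, no trend, array weights, a replicate block, and leaving out libraries. MBD libraries were not analysed here, and single values of some pathway genes are not reported here. Same-numbered BPA and vehicle animals are different animals.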

Additional observations from a re-analysis of the deposited data

How the results depend on the processing

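The count of called genes was 0 under all 24 alternatives of the limma fit, including the fit with a replicate block (0 called), and the smallest adjusted p of a member was 0.9876. Same-numbered animals correlated between -0.569 and 0.398 and 1 of 6 matched its own number best, so the numbers do not pair the animals. Of 149 recomputed member differences 141 kept their direction and side of the threshold, and Mvk, Insig1 and Sc5d kept theirs in every one. Srebf2 turned to -0.04 without BPA animal 5, -0.02 without vehicle animal 1, -0.01 without vehicle animal 2 and -0.04 without vehicle animal 4. Leaving out 1 library at a time, it ranged from -0.0436 to 0.1421. Fdft1 turned to 0.0101 with array weights, 0.054 without BPA animals 2 and 5 and vehicle animal 6, and 0.0489 without BPA animal 5 and vehicle animal 3, the last chosen after seeing the data. Sqle turned to -0.0359 without BPA animals 2 and 5 and vehicle animal 6. The cause was not tested. Pairs past the threshold numbered 0 under all 18 alternatives. Sqle had an r above 0 with 13 to 15 of the 15 other synthesis genes under all alternatives. It had an r of at least 0.5 with 3 without BPA animals 2 and 5 and vehicle animal 6, with 3 without BPA animal 5 and vehicle animal 3, and with 4 to 9 leaving out 1 library, with 4 without BPA animal 5 or vehicle animal 1. With 6 animals a group, 95% intervals reached 0.284 to 0.415 to either side of a member's difference, before any adjustment. Detection over 12528 genes needed more than that: Cd163, a macrophage marker at -0.74 with groups that did not overlap, also had an adjusted limma p of 0.9997.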
